A study of Brassica oleracea with 12 samples.

Results

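The genes described here are those annotated to ribosome biogenesis or rRNA processing in leaves of an ornamental kale whose leaves turn bicolored as they develop. A row of the deposited expression table was taken if its gene ontology terms held ribosome biogenesis or rRNA processing and not ribosome. It also had to reach 1 FPKM in at least 3 of 12 libraries. The exclusion removes rows annotated to the ribosome, but not every row described as a ribosomal protein. The ontology terms were met by 106 of 45714 rows, and 90 of these passed the expression filter. The other 16 failed it. Of the 90 genes, 62 carried the rRNA processing term, 42 the ribosome biogenesis term and 14 both. A product description was given for 50 and an Arabidopsis identifier for 32. The filter turns on the lowest of a gene's 3 highest libraries, which was 0.995 FPKM in Bo7g014720, just outside, and 1.02 FPKM in Bo4g122960, just inside.

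The plants were Brassica oleracea var. acephala, cultivar JC007-2B, and every group shares that cultivar and organ. Group S1 was the whole leaf without veins when leaves were red. Group S2 was the whole leaf without veins when the center had reddened and the margin was green. At S3 the leaf was divided into the red center (S3_C) and the green margin (S3_S). Each of the 4 groups had 3 libraries. The labels give neither plant age nor the number of plants behind a library, so p-values here measure only how these samples spread, and that spread may be technical.

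Ribosomes are built in the nucleolus, where RNA polymerase I makes a long precursor RNA that is cut, trimmed, methylated and pseudouridylated while ribosomal proteins and many assembly factors join it. The small subunit processome handles the 5′ part of the precursor, and other factors, among them the PeBoW complex of pescadillo, BOP1 and WDR12, handle the large subunit. In plants these genes are known for high expression in young, growing tissue, and chloroplasts and mitochondria use separate factors of bacterial type for their own ribosomes.

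By role, the 90 genes comprised 13 factors of large subunit assembly, 12 of the small subunit processome, 13 rRNA methyltransferases, 7 members of the H/ACA and pseudouridine machinery, 9 nucleases, 1 helicase (RH36), 6 genes of chloroplasts or mitochondria and 29 others, most of them without a description. Some rows had descriptions that name another function, for example the V-type proton ATPase subunit Bo7g117020 and the purine synthesis enzyme ATASE2. The transporter-like Bo7g065060 counts among the methyltransferases by its ontology terms. Bo9g173520, described as related to an RNase L inhibitor, counts among the nucleases by that wording. Bo3g039710, among the others, is described as a ribosomal protein of the L7Ae/L30e/S12e/Gadd45 family. They are kept because the rule takes the ontology terms as deposited. Beyond the terms used to choose them, 35 of the genes were annotated to the nucleus, 29 to the nucleolus, 13 to a ribonucleoprotein complex and 9 to the chloroplast. The mean over 12 libraries ranged from 0.874 to 154 FPKM with a median of 8.11, against a median of 5.49 over the 27272 rows that passed the same filter.

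The libraries of a group did not all sit together for these genes, and this precedes every comparison. After each gene was centred on its mean over the 12 libraries on the log2(FPKM + 1) scale, the median gene stood at -0.28, 0.52 and 0.71 in S1 replicates 1 to 3, and at -0.08, -0.14 and -0.33 in S2. It stood at -0.59, -0.81 and 0.12 in the center and at 0.11, 0.21 and 0.46 in the margin. S1 replicate 1 therefore lay with the S2 libraries, and center replicate 3 lay among the margin libraries. Whether either library carries a wrong label cannot be settled from these data, and both were kept in the groups their labels give. The lowest value of the 12 was in center replicate 2 for 53 of the 90 genes, and the highest was in S1 replicate 3 for 45. By group mean, S1 was highest for 51 genes, the margin for 26, the center for 7 and S2 for 6, while the center was lowest for 64. Such counts were not made over all rows.

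**Figure D1:**
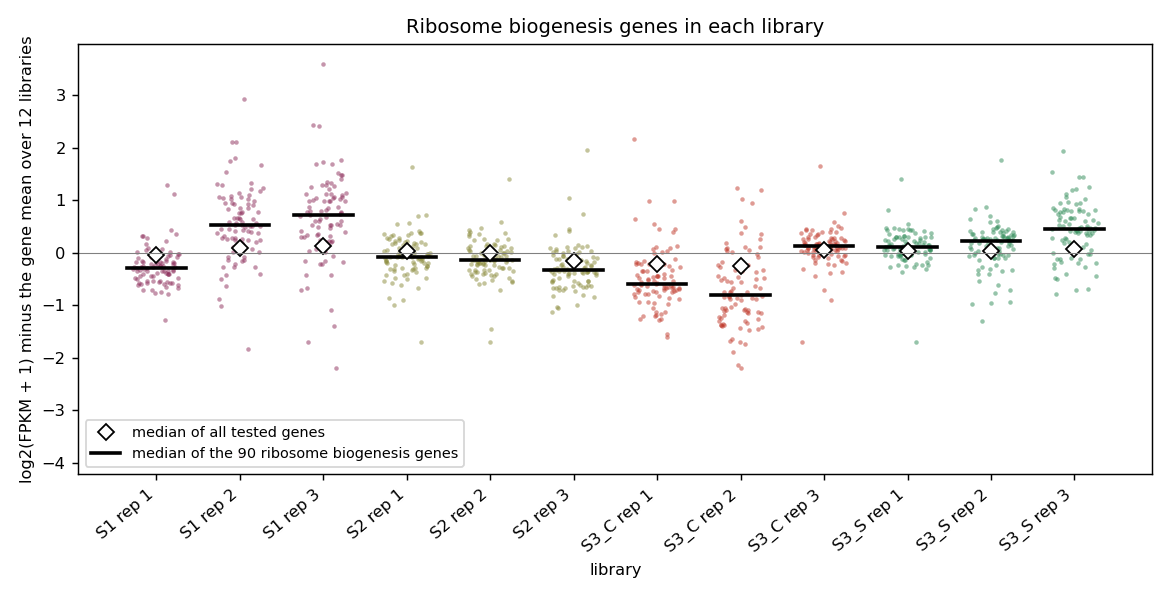
Each point is 1 of the 90 ribosome biogenesis genes in 1 of the 12 libraries, as log2(FPKM + 1) minus the mean of that gene over the libraries; black bars are the medians of these genes and diamonds the medians of all tested genes. S1 replicate 1 and center replicate 3 sit away from the other libraries of their groups, at -0.28 and 0.12.

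The dots spread to both sides of 0 in every library, and the diamonds for all tested genes move less than the bars. Markers of other cell types were read in the same libraries. Summed over the 6 of 9 dividing-cell markers found in the table, FPKM was 23.8, 66.8 and 86.2 in S1, 12.0 to 28.5 in S2, 20.2 to 28.7 in the center and 21.0, 19.4 and 43.1 in the margin. PCNA2, the sliding clamp of DNA replication, read 0.0423, 31.5 and 35.9 FPKM in S1 and 0.0476, 0.130 and 10.6 FPKM in the margin. The cytokinesis syntaxin SYP111 was listed at 0 in 10 libraries, all of S1 and the margin among them, and the cyclin CYC1 ranged from 10.7 to 27.8 FPKM with no such split. Summed markers of vasculature (3 of 8 found) were 0.894, 7.42 and 6.38 FPKM in S1 and 12.5 FPKM in margin replicate 3, and stayed between 0.462 and 2.17 FPKM in S2, the center and the other margin libraries. The epidermal wax enzyme CER1 (1 of 5 found) spanned 107 to 223 FPKM in S1, 20.3 to 126 in S2, 5.37 to 47.8 in the center and 36.4 to 225 in the margin. The mesophyll antenna gene LHCA4 (1 of 5 found), a leaf gene, was at 229 FPKM or more in every library. The part of these cell types in the results below was not tested. In bulk samples fewer cells of a type and less RNA per cell cannot be told apart.

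Between the green margin and the red center of S3, most ribosome biogenesis genes read higher in the margin, and none passed the test. The log2 fold change was above 0 for 77 of 90 genes, where 65.5% of all tested rows were above 0. Its median was 0.67, with quartiles of 0.20 and 0.98, against a median of 0.18 over all rows. The median was 0.54 for 403 ribosomal protein rows and 0.34 for 67 DNA replication rows, which share no gene with the 90. Of these rows 89.3% and 86.6% were above 0, against 85.6% of the 90 genes, so this direction was not particular to them. The margin mean was at least 1.5 times the center mean for 59 genes and at least 2 times for 27, and the reverse held at 1.5 times for 4. Shares of all rows at these ratios were not computed.

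With limma, 0 of 90 genes passed an adjusted p of 0.05 (were called), against 0.0% of all rows. The smallest adjusted p was 0.476, shared by all 25 genes at an unadjusted p under 0.05. Of these, 24 were higher in the margin (26.7% of the 90, against 7.47% of all rows) and 1 was lower (1.11%, against 2.89%). All 3 margin libraries lay above all 3 center libraries for 21 genes (23.3%, against 11.9% of all rows), and the reverse held for 1 gene (against 4.85%). They lay above for 18.6% of ribosomal protein rows and 7.46% of DNA replication rows, and below for 0.993% and 4.48%. At an unadjusted p under 0.05, 3.97% and 5.97% of these rows were higher and 0.248% and 1.49% lower. The counts of the 90 genes depended on single libraries. Center replicates 1 and 2 both lay below every margin library for 63 genes, whereas center replicate 3 did so for 22, and it was the highest center library for 71. The centred median of all tested rows was -0.215, -0.246 and 0.057 in center replicates 1 to 3. All rows thus had the same order of these libraries, to a smaller extent. Shares of all rows for these counts were not computed. Without center replicate 3, the number higher at an unadjusted p under 0.05 was 50 (55.6%, against 15.9% of all rows). It was 3 without center replicate 2 (3.33%, against 1.36%) and 11 without margin replicate 2 (12.2%, against 4.68%). It was 4 without center replicate 1 (4.44%, against 3.97%) and 4 without margin replicate 3 (4.44%, against 4.5%). In these last 2 fits the share of the 90 genes was near that of all rows. Dropping S1 replicate 1, which is in neither group but adds to the common estimate of variance, gave 46 (51.1%, against 11.4%). In each of the fits without 1 library 0 genes were called, and the median fold change stayed between 0.50 and 0.94. The fit with the replicate number as a block over the S3 libraries gave 43 genes higher (47.8%, against 10.5% of all rows). It gave 1 lower (1.11%, against 4.67%), again with 0 called. After median-of-ratios scaling, the median over all rows moved from 0.18 to 0.01, and the median of the 90 genes lay 0.46 above it in place of 0.49. Of the 90 genes 69 were then above 0, and the 8 that turned sign had log2 fold changes of at most 0.19 before scaling. The genes higher and lower at an unadjusted p under 0.05 were then 19 and 1, where all rows split 4.7% higher and 5.32% lower.

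**Figure D2:**
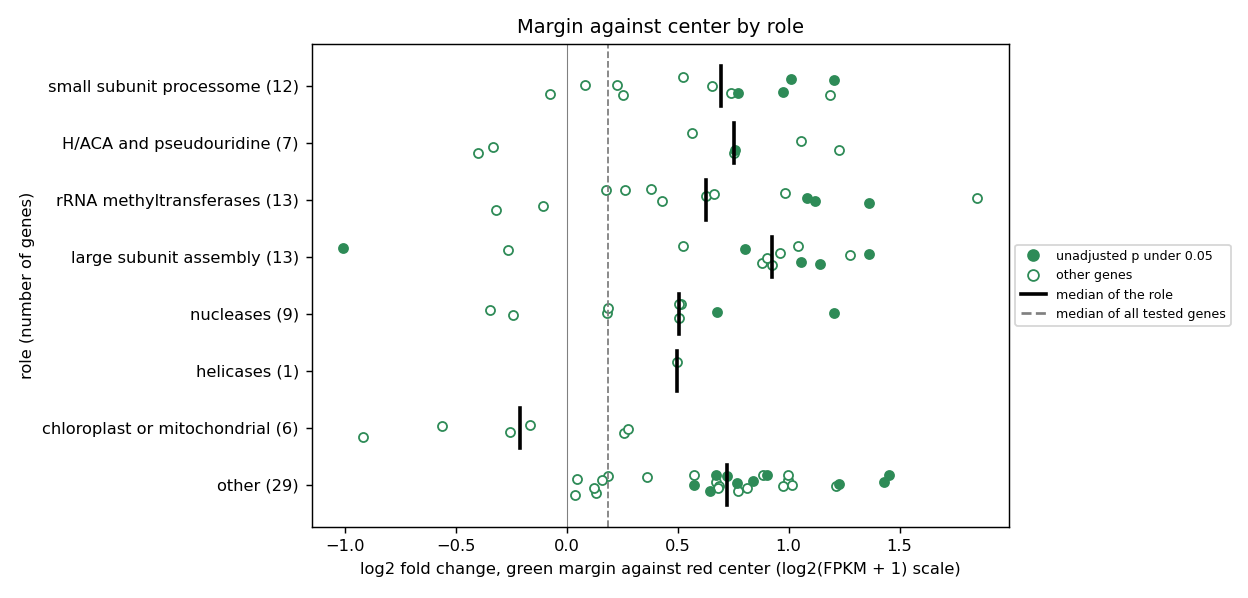
Log2 fold change of the green margin against the red center for each of the 90 genes, on the log2(FPKM + 1) scale, by role; filled points have an unadjusted p under 0.05, black bars are role medians and the dashed line is the median of all tested genes (0.18). The medians lie between 0.50 and 0.92 except for the chloroplast or mitochondrial genes at -0.21.

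Large subunit assembly had the highest role median in the plot of fold changes by role, 0.92, with 11 of 13 genes above 0. The PeBoW complex, which is needed for processing the large subunit precursor, was represented by pescadillo, 2 genes described as BOP1 and 3 as WDR12, and all 6 were above 0. The WDR12 gene Bo9g163990 read 4.92, 3.21 and 17.0 FPKM in the center and 14.6, 19.7 and 22.4 FPKM in the margin. Center replicate 3 thus exceeded the lowest margin library, so the groups overlapped. The log2 fold change was 1.36 (SE 0.51, limma adjusted p = 0.476). A second WDR12 gene, Bo2g012630, read 1.44, 1.03 and 6.29 FPKM in the center and 4.93, 5.34 and 9.29 FPKM in the margin, a log2 fold change of 1.14 (SE 0.51, limma adjusted p = 0.476). Center replicate 3 again lay inside the margin range, and the third copy, Bo3g010340, had the same arrangement with a log2 fold change of 1.04.

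The BOP1 gene Bo4g024400 read 3.62, 2.16 and 9.14 FPKM in the center and 9.16, 9.31 and 11.6 FPKM in the margin. Its groups did not overlap, although center replicate 3 and margin replicate 1 nearly met, and the log2 fold change was 1.05 (SE 0.43, limma adjusted p = 0.476). Pescadillo (Bo3g009850), among the most abundant genes of this role, read 22.1, 14.8 and 51.0 FPKM in the center and 47.2, 48.8 and 57.3 FPKM in the margin. In S1 it read 31.3, 59.7 and 81.5 FPKM and in S2 47.3, 38.5 and 25.6 FPKM. The margin libraries were close together, center replicate 3 lay among them, and the log2 fold change of 0.96 (SE 0.45) did not pass (limma adjusted p = 0.476).

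Mrt4, a stalk assembly factor, had 2 copies. Bo3g139870 read 13.7, 9.74 and 19.6 FPKM in the center and 28, 22.7 and 24.2 FPKM in the margin, with no overlap and a log2 fold change of 0.81 (SE 0.32, limma adjusted p = 0.476). The other copy, Bo5g043530, had a log2 fold change of 0.52. eIF6, which keeps the large subunit from joining the small one too early, also had 2 copies, and these differed in direction. Bo4g115530 read 17.0, 23.5 and 73.7 FPKM in the center and 55.9, 34.7 and 101 FPKM in the margin (log2 fold change 0.88, SE 0.61). Bo8g090070 read 37.8, 67.1 and 59.3 FPKM in the center and 46.7, 58.3 and 31.6 FPKM in the margin (log2 fold change -0.26, SE 0.27). Neither passed, the groups of both copies overlapped, and the difference between the copies was not tested. The sources used here do not say how reads of near-identical copies were divided, so values of single copies of WDR12, BOP1, mrt4 and eIF6 are uncertain.

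The gene lower in the margin at an unadjusted p under 0.05 also belonged to this role. Bo8g050960, an FtsJ-like methyltransferase whose yeast relative SPB1 acts on the large subunit precursor, read 2.07, 4.14 and 2.11 FPKM in the center and 1.44, 0.912 and 0.296 FPKM in the margin. The groups did not overlap, and the log2 fold change was -1.01 (SE 0.43, limma adjusted p = 0.476). In S1 it read 2.02, 0.111 and 0.0518 FPKM and in S2 0.883, 1.85 and 1.81 FPKM, so its 3 lowest libraries were S1 replicates 2 and 3 and margin replicate 3, those in which the median gene was highest.

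**Figure D3:**
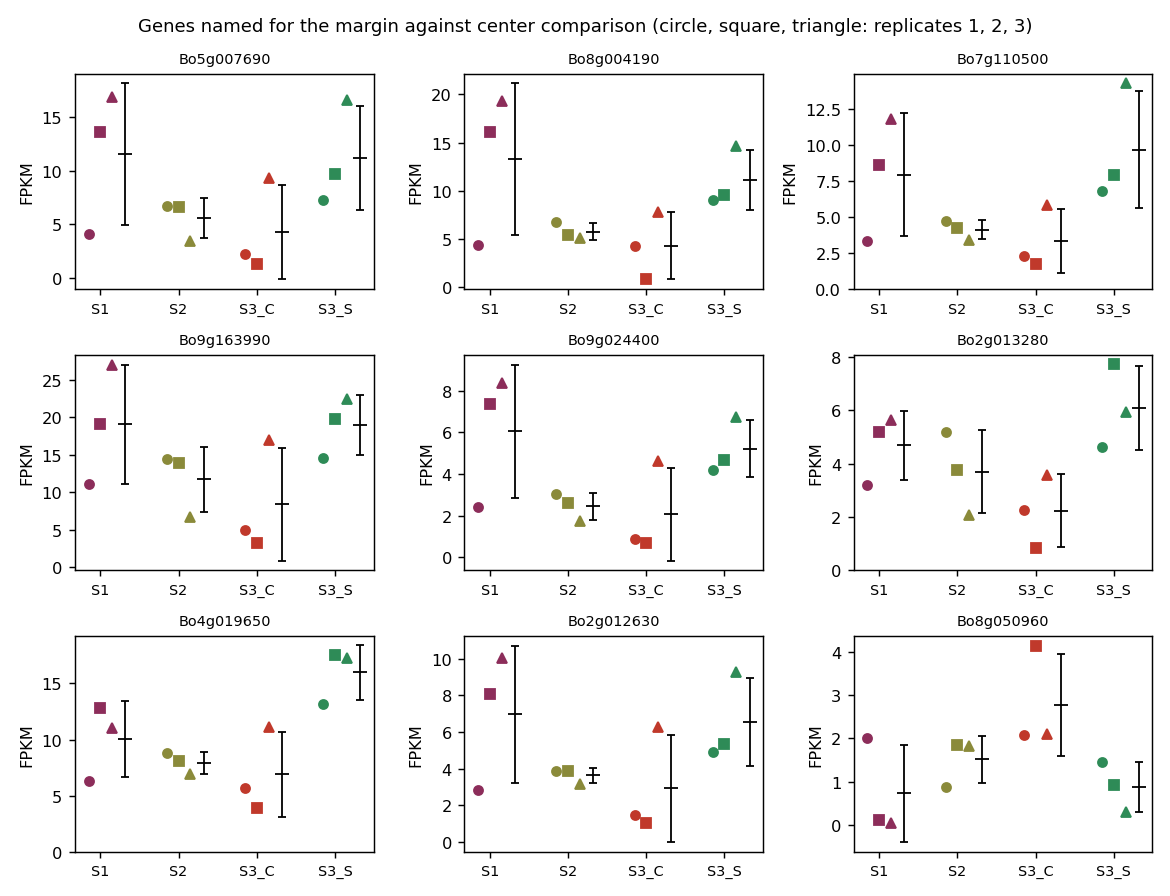
FPKM by group for the 8 genes with the largest positive fold change among those at an unadjusted p under 0.05 between margin and center and for the 1 gene with a negative one (Bo8g050960); circles, squares and triangles are replicates 1, 2 and 3, and black lines are mean ± SD of 3 libraries. In the 8 higher genes center replicate 3 is the highest center library, and in Bo8g050960 the margin replicates end at 0.296 FPKM.

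Of the 12 small subunit processome genes, 11 were above 0 between margin and center with a median log2 fold change of 0.70. At an unadjusted p under 0.05, 4 were higher (33.3%, against 7.47% of all rows). Bo2g013280, annotated to the processome without a description, read 2.28, 0.853 and 3.58 FPKM in the center and 4.61, 7.74 and 5.93 FPKM in the margin. All margin values exceeded all center values, and the log2 fold change was 1.20 (SE 0.37, limma adjusted p = 0.476). Bo3g048320, a WD-40 protein related to UTP21 of the yeast processome, read 1.67, 0.906 and 3.37 FPKM in the center and 4.07, 4.08 and 5.54 FPKM in the margin, also with no overlap (log2 fold change 0.97). KRR1 (Bo9g174480), the most abundant gene placed in this role by its description, read 4.82, 3.66 and 8.66 FPKM in the center and 8.22, 8.02 and 11.3 FPKM in the margin, which overlapped. Its log2 fold change was 0.65 (SE 0.40). The MPP10 gene Bo9g021900, a core U3 particle protein, read 1.35, 0.476 and 3.54 FPKM in the center and 3.65, 3.27 and 8.35 FPKM in the margin (log2 fold change 1.19). Both UTP11 genes lay above 0, at 0.52 for Bo8g095120 and 0.74 for Bo4g105030. SLOW WALKER 1 (Bo3g003720) was listed at 0 in 7 of 12 libraries and at 1.13 to 6.03 FPKM in the others, with no grouping, so it was not read further.

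The rRNA methyltransferases had a median log2 fold change of 0.63, with 11 of 13 above 0. At an unadjusted p under 0.05, 3 were higher (23.1%, against 7.47% of all rows). The 13 include the transporter-like Bo7g065060, at a log2 fold change of -0.11. Bo7g110500, annotated to rRNA methylation in the nucleus, read 2.34, 1.75 and 5.87 FPKM in the center and 6.85, 7.93 and 14.3 FPKM in the margin. The groups did not overlap, and the log2 fold change was 1.36 (SE 0.45, limma adjusted p = 0.476). It was also higher in the margin than in S2 (4.75, 4.26 and 3.42 FPKM), by 1.0 (SE 0.45, limma adjusted p = 0.893). Bo1g040350, the most abundant gene of this role, read 17.9, 11.6 and 50.8 FPKM in the center and 45.3, 46.1 and 42.4 FPKM in the margin. Its margin libraries were close together while center replicate 3 exceeded all of them, and the log2 fold change was 0.98 (SE 0.48, limma adjusted p = 0.477). Bo3g019390, a relative of Arabidopsis RID2, which is required for pre-rRNA processing in growing cells, had a log2 fold change of 0.63. PFC1, which dimethylates the small subunit rRNA of chloroplasts, read 25.8, 24.9 and 33.5 FPKM in the center and 30.8, 38.2 and 26.9 FPKM in the margin, a log2 fold change of 0.18, and -0.05 after median-of-ratios scaling.

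In the H/ACA and pseudouridine group, which changes uridines of rRNA to pseudouridine, 5 of 7 genes were above 0 with a median of 0.75. An H/ACA subunit, Bo3g013000, ranged from 9.24 to 23.6 FPKM in the center and read 24.2, 26.4 and 27.8 FPKM in the margin, without overlap (log2 fold change 0.75, SE 0.43). A second, Bo2g015370, also did not overlap (1.23). Another row, which spans Bo2g155610 and Bo2g155620, was in the other direction at -0.33. RH36, the helicase of small subunit rRNA processing known as SLOW WALKER 3, read 1.97, 2.11 and 3.16 FPKM in the center and 3.93, 3.25 and 4.16 FPKM in the margin. It did not overlap, with a log2 fold change of 0.50 (SE 0.25, limma adjusted p = 0.479).

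Among the 9 genes of the nuclease list, which include the RNase L inhibitor relative Bo9g173520, the median was 0.51 with 7 above 0. Bo4g019650, a protein of the RNase P and RNase MRP particles that cut tRNA and rRNA precursors, had the smallest unadjusted p of the 90 genes in this comparison. It read 5.64, 3.89 and 11.1 FPKM in the center and 13.2, 17.5 and 17.3 FPKM in the margin, with no overlap. The log2 fold change was 1.20 (SE 0.34, limma adjusted p = 0.476). S2 read 8.78, 8.04 and 6.90 FPKM and S1 read 6.31, 12.8 and 11 FPKM, so all margin libraries were also above all S1 and S2 libraries. Bo6g056320, related to the exosome-associated nuclease RRP6, had a log2 fold change of 0.68 and was also at an unadjusted p under 0.05. The most abundant row of this list spans Bo8g108310 and Bo8g108320, and it read 24.2, 14.4 and 14.4 FPKM in the center and 12.8, 14.9 and 12.3 FPKM in the margin (log2 fold change -0.35, SE 0.28). EMB2730, an RNase II/R protein known from chloroplasts, had a log2 fold change of 0.18, and -0.03 after median-of-ratios scaling.

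All 29 other genes were above 0 (24 of 29 after median-of-ratios scaling), with a median of 0.72. At an unadjusted p under 0.05, 10 were higher (34.5%, against 7.47% of all rows). Nucleolar GTP-binding protein 1 (Bo8g004190), an assembly GTPase of the large subunit in yeast, read 4.31, 0.842 and 7.78 FPKM in the center and 9.11, 9.61 and 14.7 FPKM in the margin. Its groups did not overlap, and its log2 fold change was 1.43 (SE 0.58, limma adjusted p = 0.476). Bo5g007690, a nuclear gene without a description, read 2.19, 1.3 and 9.33 FPKM in the center and 7.25, 9.68 and 16.6 FPKM in the margin, a log2 fold change of 1.45 (SE 0.60) with overlap through center replicate 3. Bo9g024400, known here only by the ribosome biogenesis term, read 0.876, 0.681 and 4.65 FPKM in the center and 4.21, 4.67 and 6.77 FPKM in the margin (log2 fold change 1.23, SE 0.49). ATASE2, the first enzyme of purine synthesis, read 7.69, 7.78 and 10.6 FPKM in the center and 12.6, 15.9 and 17.9 FPKM in the margin without overlap (0.77, SE 0.28). Bo8g092320 and Bo8g059440, relatives of the Arabidopsis RNA cytidine acetyltransferases, were higher by 0.64 and 0.84, and neither overlapped. The most abundant gene of the 90 is the ATPase subunit Bo7g117020, at 126, 163 and 146 FPKM in the center and 129, 228 and 142 FPKM in the margin (0.16, SE 0.30, and -0.08 after median-of-ratios scaling). Also abundant, Bo3g062170 read 25.15, 17.0 and 43.2 FPKM in the center and 39.1, 45.8 and 68.3 FPKM in the margin (0.88, SE 0.45). Bo4g187330 read 21.5, 20.3 and 40.4 FPKM in the center and 38.8, 44.2 and 48.6 FPKM in the margin (0.72, SE 0.32). Neither has a description, and the groups of both overlapped.

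Of the 6 chloroplast or mitochondrial genes, 2 were above 0 and 4 below, with a median of -0.21, and none was at an unadjusted p under 0.05. The difference between this role and the others was not tested. The same identifier list held 3 further genes that the ontology rule did not take, and these were above 0, namely the RNA-binding protein ATRAP at 0.58, the GTPase BPG2 at 0.46 and the nuclease emb2746 at 0.24. CSP41A, a chloroplast RNA-binding protein that acts on rRNA precursors, read 213, 92.2 and 24.6 FPKM in the center and 59.2, 18.5 and 63.8 FPKM in the margin (log2 fold change -0.92, SE 1.20, limma adjusted p = 0.738). Bo9g166590, a relative of the Arabidopsis chloroplast elongation factor-like GTPase SVR3, read 204, 209 and 88.5 FPKM in the center and 142, 112 and 72.8 FPKM in the margin (-0.56, SE 0.59). In both genes center replicate 3 was the lowest center library, and the groups overlapped. EMB269, the Obg GTPase of chloroplasts, had a log2 fold change of 0.28. Over the 9 genes annotated to the chloroplast, whatever their role, the median was -0.17 with 4 above 0, against 0.75 with 25 of 29 above 0 for those annotated to the nucleolus. These 2 terms were compared after the values were seen, and the difference between them was not tested.

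**Figure D4:**
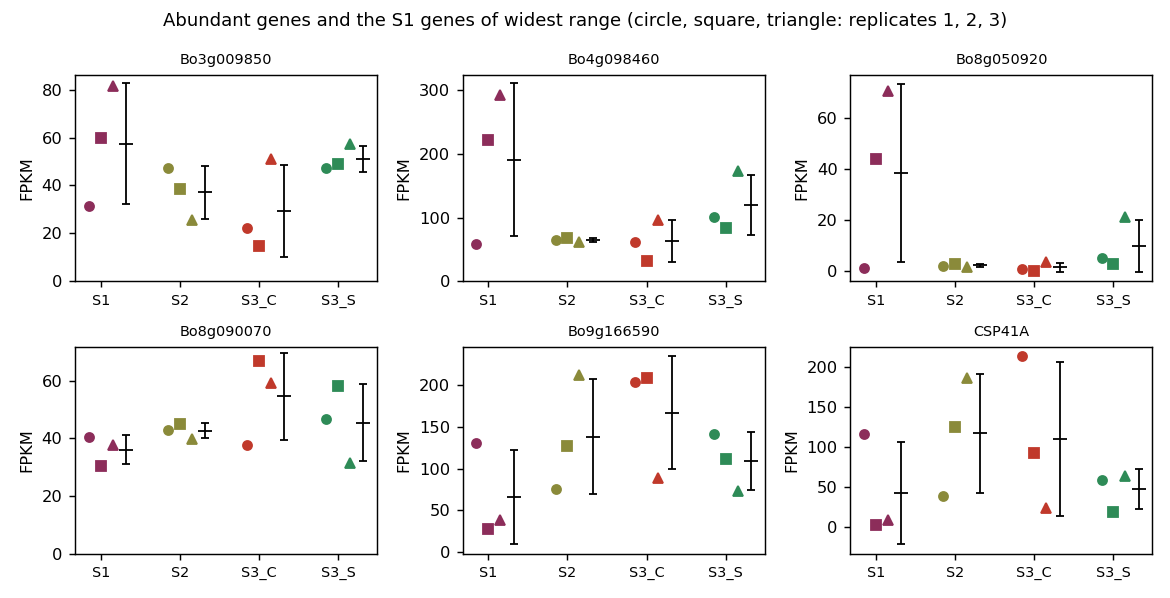
FPKM by group for pescadillo (Bo3g009850), Bo4g098460, the methyltransferase Bo8g050920, an eIF6 copy (Bo8g090070), the elongation factor-like Bo9g166590 and CSP41A; circles, squares and triangles are replicates 1, 2 and 3, and black lines are mean ± SD of 3 libraries. In S1, replicate 1 is low beside replicates 2 and 3 for Bo4g098460 and Bo8g050920, and high beside them for Bo9g166590 and CSP41A.

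From S1 to S2 the ribosome biogenesis genes read lower in most cases. The log2 fold change was below 0 for 72 of 90 genes, where 57.1% of all tested rows were below 0, and its median was -0.52 against -0.09 over all rows. It was -1.02 for ribosomal protein rows and -0.66 for DNA replication rows. All 12 processome genes were below 0 (median -0.56), as were 11 of 13 large subunit genes (-0.64) and 6 of 7 of the H/ACA and pseudouridine group (-0.61). Of the chloroplast or mitochondrial genes, 4 of 6 were above 0 (median 0.24). With limma, 0 of 90 were called (against 0.00733% of all rows), 9 were lower at an unadjusted p under 0.05 (10.0%, against 8.39%) and 0 were higher (against 3.7%). All S2 libraries lay below all S1 libraries for 4 genes (4.44%, against 6.7%) and above them for 0 (against 4.71%).

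This comparison turned on S1 replicate 1, which was the lowest S1 library for 72 of 90 genes and lay within the range of the S2 libraries for 59. S1 replicates 2 and 3 both lay above every S2 library for 62. Shares of all rows for these counts were not computed. The centred median of all tested rows was -0.037, 0.095 and 0.123 in S1 replicates 1 to 3. With S1 replicate 1 left out, 19 genes were lower in S2 at a limma adjusted p under 0.05 (against 10.9% of all rows) and 3 were higher (against 4.69%), and the median log2 fold change was -0.81. Without both that library and margin replicate 3, 23 were lower (25.6%, against 13.3% of all rows) and 4 higher (4.44%, against 5.63%). Both libraries stood apart on these same values, so calls made without them are no independent support. The 19 comprised 3 large subunit factors, 3 processome genes, 3 genes of the nuclease list, 2 methyltransferases, 1 H/ACA subunit and 7 others. The 3 higher were CSP41A, Bo9g166590 and Bo8g050960. Without S1 replicate 2 or without S1 replicate 3, 0 genes were called and 0 were lower at an unadjusted p under 0.05 (against 1.38% and 1.34% of all rows). The summed dividing-cell markers given above separate the same S1 libraries, although CYC1 and SYP111 alone do not. The part of dividing cells in the difference was not tested.

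The largest differences toward lower values in S2 were in genes without a description. Bo8g050920, annotated to methyltransferase activity, read 1.41, 43.8 and 70.4 FPKM in S1 and 2.15, 2.94 and 1.83 FPKM in S2. The log2 fold change was -2.59 (SE 1.1, limma adjusted p = 0.403), and without S1 replicate 1 it was -4.11 (limma adjusted p = 0.00836). In the center it read 1.02, 0.281 and 3.50 FPKM and in the margin 5.36, 2.83 and 21.4 FPKM. Bo7g109850 read 0.690, 11.6 and 14.6 FPKM in S1 and 0.455, 1.20 and 1.14 FPKM in S2 (-1.87, SE 0.80). Bo8g098190 read 3.74, 27.2 and 42.5 FPKM in S1 and 4.53, 4.54 and 3.47 FPKM in S2 (-1.80, SE 0.67), and Bo1g039460 read 9.29, 36.4 and 40.6 FPKM in S1 and 8.77, 8.05 and 9.13 FPKM in S2 (-1.39, SE 0.47). The limma adjusted p was 0.403 for each of these 3, and 0.0137, 0.00534 and 0.00628 without S1 replicate 1. Bo7g109850, Bo8g098190, Bo1g039460 and the abundant Bo4g098460, at 58.7, 222 and 292 FPKM in S1 and 64.6, 67.2 and 61.7 FPKM in S2, all carried the ribonucleoprotein complex term. Of the 13 genes with that term, 11 were below 0 with a median of -0.93, which was looked up after their values were seen. Bo7g109850, Bo8g098190, Bo1g039460 and Bo4g098460 count among the others, which also take unplaced genes with the term for a structural constituent of the ribosome.

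Among genes with a description, the MPP10 gene Bo9g021900 read 1.80, 14.4 and 14.5 FPKM in S1 and 2.64, 3.16 and 1.89 FPKM in S2, a log2 fold change of -1.31 (SE 0.64). KRR1 (Bo9g174480) read 6.23, 20.6 and 17.2 FPKM in S1 and 8.04, 6.53 and 6.04 FPKM in S2 (-0.86, SE 0.40), and RH36 read 2.69, 3.88 and 5.55 FPKM in S1 and 2.25, 2.44 and 2.04 FPKM in S2 without overlap (-0.60, SE 0.25). CSP41A was in the other direction, at 117, 2.34 and 9.50 FPKM in S1 and 39.1, 125 and 187 FPKM in S2 (2.62, SE 1.20, limma adjusted p = 0.403), and so was Bo9g166590, at 130, 27.7 and 38.3 FPKM in S1 and 75.2, 127 and 212 FPKM in S2 (1.27, SE 0.59). For both genes S1 replicate 1 lay in the S2 range. LHCA4 read 2047, 262 and 229 FPKM in S1 and 1057 to 2664 FPKM in S2, so the same libraries were set apart.

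**Figure D5:**
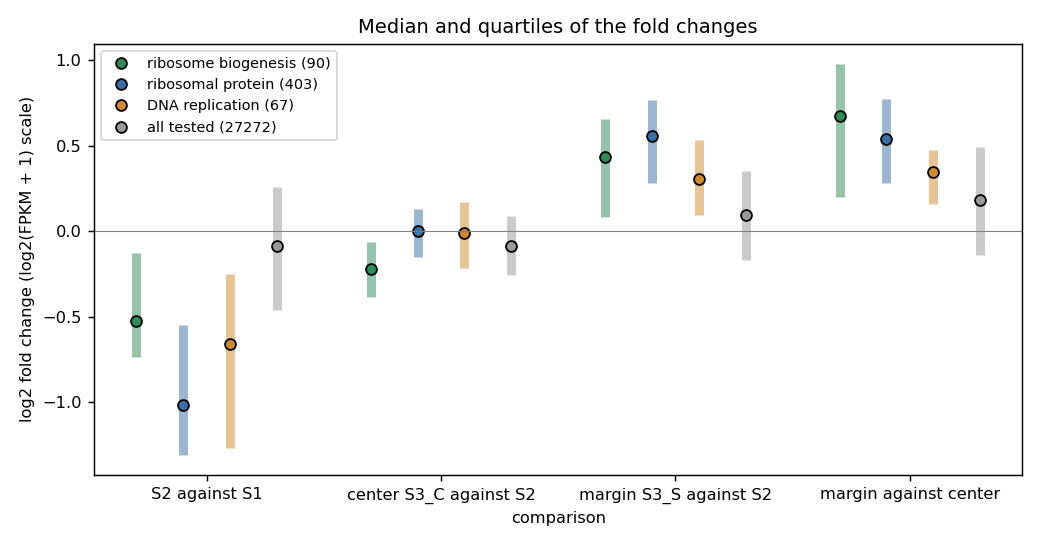
Median (point) and range between the lower and the upper quartile (bar) of the log2 fold changes in 4 comparisons for ribosome biogenesis genes, ribosomal protein rows, DNA replication rows and all tested rows, on the log2(FPKM + 1) scale. The ribosome biogenesis median is -0.52 from S1 to S2, -0.22 from S2 to the center, 0.43 from S2 to the margin and 0.67 between margin and center.

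The leaf parts at S3 were also set against the whole leaf at S2. These comparisons share the S2 libraries with each other and the S3 libraries with the margin and center comparison, so their values stand side by side and are not independent. From S2 to the center, 75 of 90 genes were below 0 (against 63.1% of all rows), with a median of -0.22 against -0.09. With limma, 0 were called (0.0% of all rows), and 0 were at an unadjusted p under 0.05 in either direction (against 0.642% higher and 0.587% lower). All center libraries lay above all S2 libraries for 1 gene (against 1.5%) and below them for 0 (against 2.55%). Ribosomal protein and DNA replication rows had medians of 0.00 and -0.01. The median for the ribosome biogenesis genes was -0.06 without center replicate 2 and -0.47 without center replicate 3, and in the latter fit 16 genes were lower at an unadjusted p under 0.05 (against 3.41% of all rows).

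From S2 to the margin, 74 of 90 genes were above 0 (against 60.1% of all rows), with a median of 0.43 against 0.10, and 0 were called (0.0% of all rows). At an unadjusted p under 0.05, 6 were higher (6.67%, against 2.04%) and 0 lower (against 1.25%). All margin libraries lay above all S2 libraries for 35 genes (38.9%, against 11.2%), and the reverse held for 0 (against 4.63%). They lay above for 48.9% of ribosomal protein rows, whose median was 0.56, a larger share than of the 90 genes. For DNA replication rows the share was 8.96% and the median 0.31. In place of the 6 genes higher at an unadjusted p under 0.05, 0 were higher without S2 replicate 3 (against 1.11% of all rows). The same held without margin replicate 2 (1.58%) or margin replicate 3 (1.9%). The number was 1 without S1 replicate 2 (1.79%), S2 replicate 2 (1.16%) or center replicate 1 (1.59%), and 2 without S2 replicate 1 (2.86%). It was 9 without center replicate 3 (3.06%) and 10 without S1 replicate 1 (4.58%). Bo4g019650 was the member with the smallest p here, with a log2 fold change of 0.93 (SE 0.34, limma adjusted p = 0.893). Bo3g139870, the mrt4 copy, read 17.7, 12.4 and 14.5 FPKM in S2 against the margin values given above, a log2 fold change of 0.72 (SE 0.32), and ATASE2 read 10.5, 10.5 and 7.71 FPKM in S2, a log2 fold change of 0.64 (SE 0.28). In both, the lowest margin library was above the highest S2 library.

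Over the 4 groups together, the F test of limma called 0 of 90 genes (against 0.00733% of all rows), and 6 had an unadjusted p under 0.05 (6.67%, against 8.15%). ATASE2, Bo4g019650, Bo1g039460 and Bo7g110500 had the smallest p, with a limma adjusted p of 0.502 each. Without S1 replicate 1, 14 were called (15.6%, against 8.64% of all rows).

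Genes of the same pathway that the ontology rule did not take were read from lists of Arabidopsis identifiers. Of 58 identifiers, 20 matched a row, 6 of these were among the 90 genes, and 13 of the remaining 14 passed the filter. Between margin and center, 12 of the 13 were above 0 (against 65.5% of all rows), with a median of 0.46 (against 0.18). With limma 0 were called (against 0.0% of all rows), and 2 were higher at an unadjusted p under 0.05 (against 7.47%). These 2 were Bo7g040960, a bystin needed for small subunit export, at means of 9.38 FPKM in the center and 18.7 FPKM in the margin, and Bo9g045440, a helicase cofactor of the exosome, at 3.28 and 6.56 FPKM. NRPA2, a subunit of RNA polymerase I, which makes the rRNA precursor, read 1.47, 1.54 and 5.03 FPKM in the center and 5.28, 4.70 and 8.63 FPKM in the margin (log2 fold change 1.06, limma adjusted p = 0.476). In S1 it read 3.37, 7.45 and 8.83 FPKM, with replicate 1 again beside the S2 values of 3.83, 4.38 and 3.16 FPKM.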

How the data were processed

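Per the labels, the 12 libraries came from poly(A) RNA of kale leaves, read from both ends on an Illumina sequencer. The authors deposited FPKM (fragments scaled by transcript length and library size) per gene and library. HISAT2 2.0, StringTie 1.3.0 and Bowtie 0.12.2 are named without roles in the submitters' processing notes, and the genome build is not given in the sources used here.

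Rows that reached 1 FPKM in 3 or more of the 12 libraries were kept, and log2(FPKM + 1) was fitted with limma 3.58.1 (R 4.3.3) as group means over the 12 libraries, with an eBayes trend. P-values are two-sided and were adjusted by the Benjamini-Hochberg method over 27272 rows within each comparison. A gene was called if its adjusted p was under 0.05. Fold changes on the log2(FPKM + 1) scale understate changes of low genes. Read counts are not given, so depth is unknown and no counting interval is printed. From the spacing of the lowest values, depth relative to S1 replicate 1 was 0.667 to 1.0. In simulated data with this design, 6 of 50 changes of log2 size 1 and 28 of 50 of size 2 were recovered between margin and center.

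The genes, role lists and tests were chosen with earlier results of these data known. Roles came from lists of Arabidopsis identifiers and words of the product descriptions. Genes these did not place were given a role by ontology terms picked after the table was read, and all rRNA methyltransferases were placed that way. Unplaced genes with the term for a structural constituent of the ribosome were first set among the others. Genes were named by rule: between margin and center the 8 with the largest fold change in each direction, and 4 in each direction of each other comparison, among called genes or, failing these, genes at an unadjusted p under 0.05; the 10 most abundant; the most abundant of each role placed by identifier or description; and the 4 with the smallest F-test p. Other genes named here, mostly partners or further copies of these, were picked after their values were seen.

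Replicate numbers in the titles were checked as pairs. Deviations from the group means correlated at 0.268, 0.195 and 0.158 between same-numbered center and margin libraries of S3, so a fit with the replicate number as a block was run beside the one reported. Same-numbered S1 and S2 libraries correlated at -0.275, -0.268 and -0.181, and those of the remaining pairs of groups were mixed in sign. The block over all 12 libraries thus rests on numbers that deviated together only within S3. Other alternatives were a pseudocount of 0.1, no filter, median-of-ratios scaling, members by the rRNA processing term alone, S3 libraries alone and each library left out in turn. S1 replicate 1 and margin replicate 3 were also left out together. All 12 value columns of the table were used.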

Additional observations from a re-analysis of the deposited data

How the results depend on the processing

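The number of ribosome biogenesis genes called stayed at 0 in every comparison under a pseudocount of 0.1, no filter on low values, median-of-ratios scaling, members by the rRNA processing term alone and the replicate block. Leaving out 1 library at a time gave 0 to 22 called genes from S1 to S2 and 0 to 14 in the F test over 4 groups, where both upper values were without S1 replicate 1. The 22 were 19 lower (21.1% of the genes, against 10.9% of all rows) and 3 higher (3.33%, against 4.69%), and the 14 were 15.6% against 8.64%. Without both S1 replicate 1 and margin replicate 3 the counts were 27, of which 23 lower (25.6%, against 13.3%) and 4 higher (4.44%, against 5.63%), and 15 in the F test (16.7%, against 13.7%, close to the share of all rows). The cause was not tested. Leaving out 1 library moved the median log2 fold change between 0.50 and 0.94 for margin against center, between -0.81 and -0.32 from S1 to S2, between -0.47 and -0.06 from S2 to the center and between 0.29 and 0.51 from S2 to the margin, and no alternative turned the sign of a median. The replicate block left 0 genes called and, over all 12 libraries, gave 27 genes higher in the margin at an unadjusted p under 0.05 in place of 24 (against 6.9% of all rows), 15 lower from S1 to S2 in place of 9 (9.11%), and 13 in the F test in place of 6 (8.44%). Without 1 library, the genes at an unadjusted p under 0.05 numbered 0 to 38 lower from S1 to S2 and 0 to 50 in the F test, and the share of all rows moved with them. From S1 to S2 they were 0 without S1 replicate 2 or 3 (against 1.38% and 1.34%), 2 without S2 replicate 3 (3.18%), 4 without S2 replicate 2 (4.13%), 15 without center replicate 3 (8.48%) and 38 without S1 replicate 1 (21.5%). In the F test they were 0 without center replicate 1 (5.68%), 40 without center replicate 3 (14.8%) and 50 without S1 replicate 1 (28.2%). With 3 libraries a group and no read counts, a fold change near log2 1 was seldom recovered in simulated data, so genes not called cannot be read as equal between the groups.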
